A study of Mus musculus with 18 samples.

Results

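Matrix metalloproteinases (MMPs) and their tissue inhibitors (TIMPs) were followed across 18 libraries of mouse peritoneal macrophages through 9 genes, *Mmp9*, *Mmp12*, *Mmp13*, *Mmp14*, *Mmp19*, *Mmp25*, *Timp1*, *Timp2* and *Timp3*, found by symbol among the 55573 genes of the deposited count table. These 9 genes are part of 27 Mmp and Timp genes in that table. They were selected on their levels in these same 6 groups of libraries, which were already known, so their counts and p-values describe the data and are not independent evidence of a direction. *Mmp9* and *Mmp25*, and *Timp1* for Metformin, were also singled out by the study from the same libraries.

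The macrophages were collected by peritoneal lavage from C57BL/6 mice and sorted as F4/80+ CD11b+ cells, with 2 to 3 mice pooled in each sample. Every mouse carried floxed *Zeb1* alleles. In Zeb1f/f mice (Zeb1WT) the gene was intact, and in Zeb1f/f LysM Cre mice (Zeb1∆M) the recombinase was driven from the *Lyz2* locus, which is active in monocytes, macrophages and granulocytes. For each genotype 3 libraries came from mice given vehicle and then LPS ("LPS", 1 LPS dose), 3 from mice given LPS on both occasions ("LPS + LPS", 2 doses), and 3 from mice pretreated with Metformin and then given LPS ("Metformin + LPS", 1 dose). There was no untreated group, and the age and sex of the mice used for sequencing are not given in the sources used here. The 6 Metformin libraries carry a different series of library codes from the other 12, and the labels do not say what the codes mark, so a Metformin effect and the code series cannot be told apart. The genotypes within Metformin + LPS share 1 series.

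MMPs are zinc-dependent endopeptidases that are made as inactive proenzymes and that cut collagens, elastin, other matrix proteins, cytokines and chemokines. TIMPs bind the active site of the mature enzymes and block it. Macrophages that receive LPS through TLR4 use NF-kB and AP-1 to switch on several of these genes, and MMPs of macrophages and neutrophils are known for matrix breakdown and leukocyte movement in inflamed tissue. ZEB1 is a zinc-finger transcription factor that binds E-boxes of the form CAGGTG and is best known as a repressor in epithelial-mesenchymal transition.

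Library totals ran from 14053706 to 30570439 counts, and levels are given as CPM, counts relative to the library's total after scaling for composition. The scaling factors (TMM) ran from 0.445 to 0.708 in Zeb1WT and 0.843 to 0.879 in Zeb1∆M Metformin + LPS libraries. They ran from 0.867 to 1.065 in LPS and 1.420 to 1.564 in LPS + LPS libraries of both genotypes. A smaller factor gives a higher CPM for the same count and total. Levels without this scaling were not compared. *Zeb1*, the targeted gene, was at 6.41, 6.69 and 7.21 CPM in Zeb1WT and at 2.30, 3.01 and 1.38 CPM in Zeb1∆M macrophages with LPS. With Metformin + LPS it was at 12.56, 12.95 and 12.30 CPM against 4.21, 4.79 and 3.92 CPM. With LPS + LPS it was low in both genotypes, at 0.91, 2.52 and 1.07 CPM against 0.74, 0.93 and 0.76 CPM, and the genotypes overlapped there. The macrophage genes *Adgre1* (F4/80; 1738 to 4938 CPM), *Itgam* (CD11b; 454.3 to 2533 CPM) and *Csf1r* (453.8 to 1811 CPM) were high in every library. In bulk samples like these, fewer cells of a type and less RNA per cell cannot be told apart.

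Among the 9 genes, *Timp1* had the highest level per kilobase of exon in all 6 groups, with group means from 90.06 CPM per kilobase in Zeb1∆M LPS macrophages to 709.1 CPM per kilobase in Zeb1WT Metformin + LPS macrophages. *Mmp14* and *Timp2* followed in 4 of the 6 groups. Over all 6 groups their means were 10.58 to 68.06 and 8.148 to 42.41 CPM per kilobase. *Mmp9* spanned 1.574 to 55.92 CPM per kilobase. *Mmp12* and *Mmp25* stayed under 3 CPM per kilobase in every group, and *Timp3* was close to absent. A total of 8 of the 9 genes passed the filter on low counts and were tested among the 13443 genes that did. *Timp3* did not pass it.

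**Figure D1:**
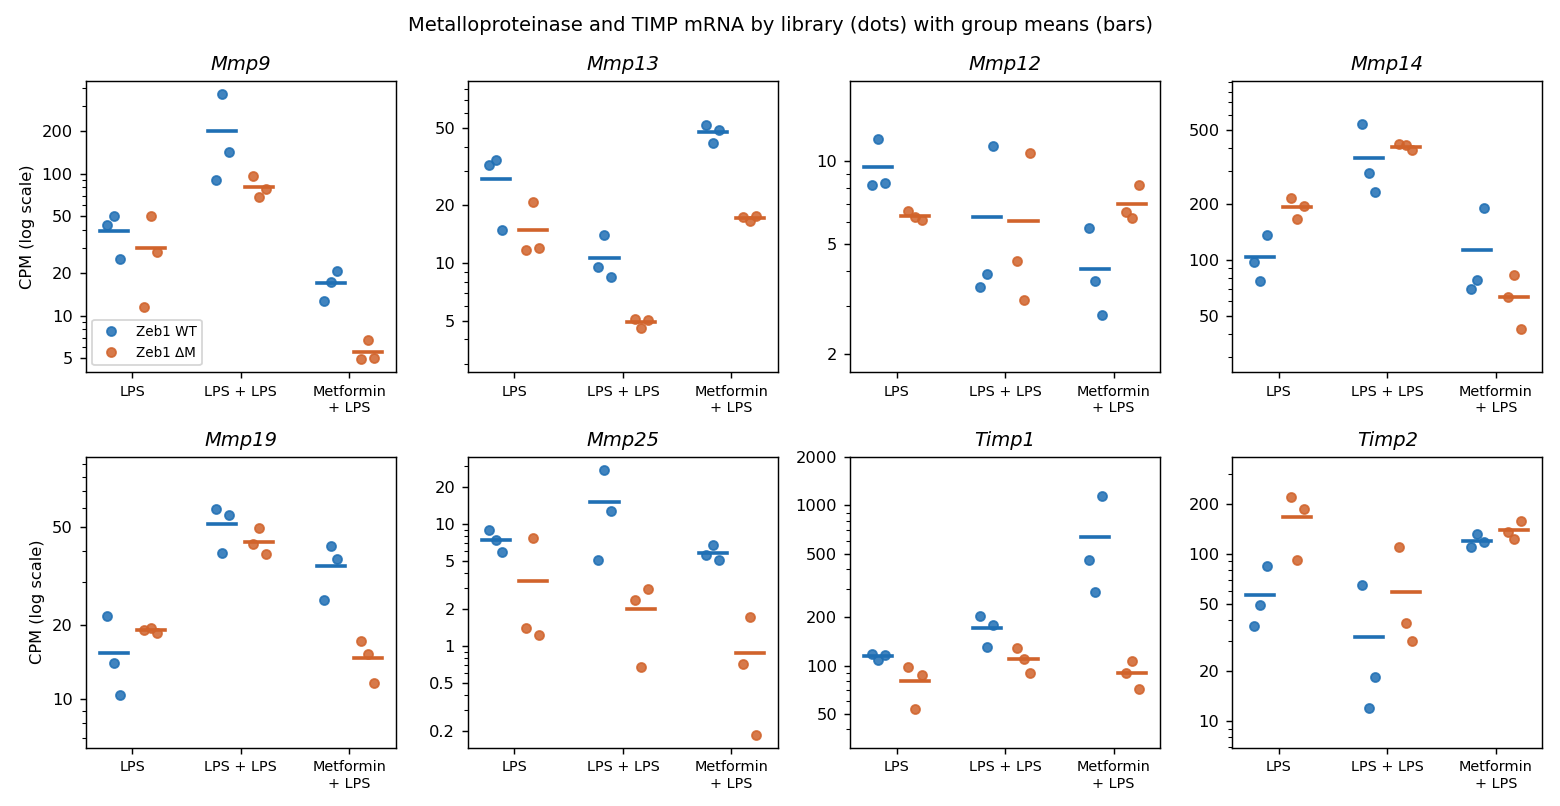
CPM on a log axis of the 8 tested metalloproteinase and TIMP genes in each of 18 libraries (dots; blue Zeb1WT, orange Zeb1∆M) with the mean of 3 libraries as a bar, for LPS, LPS + LPS and Metformin + LPS. *Timp1* reached 288.0 to 1148.2 CPM in the Zeb1WT Metformin + LPS libraries and stayed between 53.8 and 203.3 CPM in all other groups.

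The RefSeq promoter windows of GRCm38.p6, which run from 250 bases before a gene's start to 50 bases after it, hold 7 of the 9 genes, in 8 windows. *Mmp9* and *Mmp19* have no window there. The following stretches of 4 of the 9 genes are shown because they carry binding motifs of factors that act downstream of LPS, or of ZEB1 itself. *Timp3* also holds such a motif, and its stretch is not shown. Each is 100 bases long, read 5′ to 3′ on the gene's strand. Capitals mark an AP-1 site (TGACTCA or TGAGTCA) and a TATA box (TATAAA) in *Mmp13*, an AP-1 site in *Mmp12*, NF-kB motifs in *Mmp25* and the ZEB1-type E-box (CAGGTG) in *Timp2*.
Mmp13, chr9:7272414-7272513, plus strand, bases -100 to -1: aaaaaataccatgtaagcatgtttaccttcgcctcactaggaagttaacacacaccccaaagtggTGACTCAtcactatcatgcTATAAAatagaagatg
Mmp12, chr9:7347274-7347373, plus strand, bases -100 to -1 of its second RefSeq start: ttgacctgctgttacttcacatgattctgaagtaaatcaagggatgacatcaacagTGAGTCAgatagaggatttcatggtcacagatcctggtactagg
Mmp25, chr17:23645270-23645369, minus strand, bases -100 to -1: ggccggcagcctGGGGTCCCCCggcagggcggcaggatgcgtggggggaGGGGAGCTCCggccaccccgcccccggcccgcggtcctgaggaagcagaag
Timp2, chr11:118355462-118355561, minus strand, bases -150 to -51: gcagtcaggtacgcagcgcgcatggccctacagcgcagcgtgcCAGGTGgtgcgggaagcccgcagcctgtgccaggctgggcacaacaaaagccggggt

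Motifs were searched on both strands, and the TATA box on the gene's strand alone. The AP-1 letters stood 35 bases before the start of *Mmp13* and 44 bases before the second start of *Mmp12*, and 5.2% of all 32851 promoter windows hold them. The TATA box letters began 16 bases before the start of *Mmp13* and 4 bases after the second start of *Mmp12*, against 8.32% of all windows. The E-box CAGGTG stood 107 bases before the start of *Timp2*, and its reverse complement 232 bases before that of *Timp3*, a motif present in 20.2% of windows. NF-kB motifs stood 88 and 51 bases before the start of *Mmp25* and 129 bases before the first start of *Mmp12*, against 8.46% of all windows. The windows of *Mmp14* and *Timp1* held none of the 4 motifs. A match says only that these letters are present, and the files hold no measurement of binding there.

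Genotype was compared first, within each treatment. Zeb1WT mice carried no Cre, so the loss of ZEB1 and the Cre at the *Lyz2* locus cannot be told apart. With Metformin + LPS, 4 of the 8 tested genes, *Timp1*, *Mmp13*, *Mmp19* and *Mmp25*, were lower in Zeb1∆M macrophages and 0 were higher, against 5.87% of all genes in either direction and 4.61% lower in edgeR. The median log2 difference of the 8 was −1.36 and that of all genes 0.03. With LPS, 0 of 8 passed (1.15% of all genes), 3 had an unadjusted p under 0.05, as had 1844 of the 13443 genes, and DESeq2 passed 1 of the 8 and 505 genes in all. With LPS + LPS, 0 of 8 passed (0.677% of all genes), 3 of the 8 and 1575 of all genes had an unadjusted p under 0.05, and DESeq2 passed 2 of the 8 and 371 genes in all. The libraries of the genotypes did not overlap in 4 of the 8 genes with LPS (20.9% of all genes), in 3 with LPS + LPS (17.9%) and in 6 with Metformin + LPS (24.4%).

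Markers of several cell types, macrophages among them, also differed between the genotypes with Metformin + LPS, where 5.87% of all genes passed and 4.61% passed as lower. The markers' part in the result was not tested. Of 8 markers of monocytes and small peritoneal macrophages 5 were lower in Zeb1∆M (median −1.80), among them *Ccr2* (−1.74 ± 0.36 SE, edgeR adjusted p = 0.0088), and their summed levels overlapped, at 9630 to 15771 CPM in Zeb1WT and 6834 to 14181 CPM in Zeb1∆M libraries. Of 7 B cell markers 4 were lower (median −2.07), with sums of 28.7 to 55.2 against 8.22 to 11.6 CPM. Of 8 general macrophage markers 2 were lower (median −0.28), with sums of 45152 to 106648 against 19635 to 27098 CPM. Most of that last sum was *Lyz2*, lysozyme, whose locus carries the Cre in Zeb1∆M mice, at a mean of 67342 CPM in Zeb1WT and 13437 CPM in Zeb1∆M. None of these markers was at 0 in all libraries of either group. Of 12 markers of large peritoneal macrophages 1 was higher in Zeb1∆M and 0 were lower (median 0.09). Of 5 tested dendritic cell markers 1 was higher and 1 lower (median −0.17).

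The second LPS dose was then compared with the single dose within each genotype. *Mmp9*, *Mmp14* and *Mmp19* rose with LPS + LPS in both genotypes and *Mmp13* fell in both, with *Timp2* also lower in Zeb1∆M macrophages, while 36.6% of all genes passed in Zeb1WT and 32.7% in Zeb1∆M. Neither tested inhibitor passed the test upward. *Timp1* was at 0.58 ± 0.36 SE (edgeR adjusted p = 0.22) in Zeb1WT, where all 3 LPS + LPS libraries (130.9 to 203.3 CPM) lay above the LPS libraries (107.7 to 118.9 CPM), and at 0.46 ± 0.36 (adjusted p = 0.36) in Zeb1∆M. Libraries of LPS and LPS + LPS did not overlap in 5 of the 8 genes in Zeb1WT (47% of all genes) and in 4 in Zeb1∆M (51.7%). Beside these changes, 12 markers of large peritoneal macrophages summed to 3354 to 3709 CPM in Zeb1WT and 6060 to 8149 CPM in Zeb1∆M LPS + LPS libraries, and to 15038 to 26943 CPM in the libraries of the other 4 groups, and their part in the result was not tested. Of 15 tested neutrophil markers, 5 were higher and 2 lower with LPS + LPS in Zeb1WT (median log2 difference 0.73). In Zeb1∆M 6 of them were higher and 3 lower (median 1.45), and their part was not tested either.

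With Metformin + LPS against LPS, *Timp1*, *Mmp19* and *Mmp13* rose in Zeb1WT macrophages (25.2% of all genes passed), and *Mmp9* and *Mmp14* fell in Zeb1∆M macrophages (26.2%). Libraries did not overlap in 6 of the 8 genes in Zeb1WT (41% of all genes) and in 3 in Zeb1∆M (42.3%). The treatment comparisons of a genotype share their LPS libraries.

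The tests of whether a treatment acted differently in the genotypes passed for 0 of the 8 genes. For LPS + LPS, 0% of all genes passed in edgeR, 939 had an unadjusted p under 0.05, none of the 8 among them, and DESeq2 passed 74 genes and 0 of the 8. For Metformin, 0.156% of all genes passed, 4 of the 8 (*Timp1*, *Mmp19*, *Mmp14* and *Mmp12*) had an unadjusted p under 0.05, as had 1832 genes in all, and DESeq2 passed *Timp1*, *Mmp19* and *Mmp14*, all 3 negative, among 300 genes. The edgeR value of *Mmp14* was −1.73 ± 0.51 SE (adjusted p = 0.16). A call in 1 genotype and not in the other was thus not shown by the edgeR fit to be a difference between them.

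**Figure D2:**
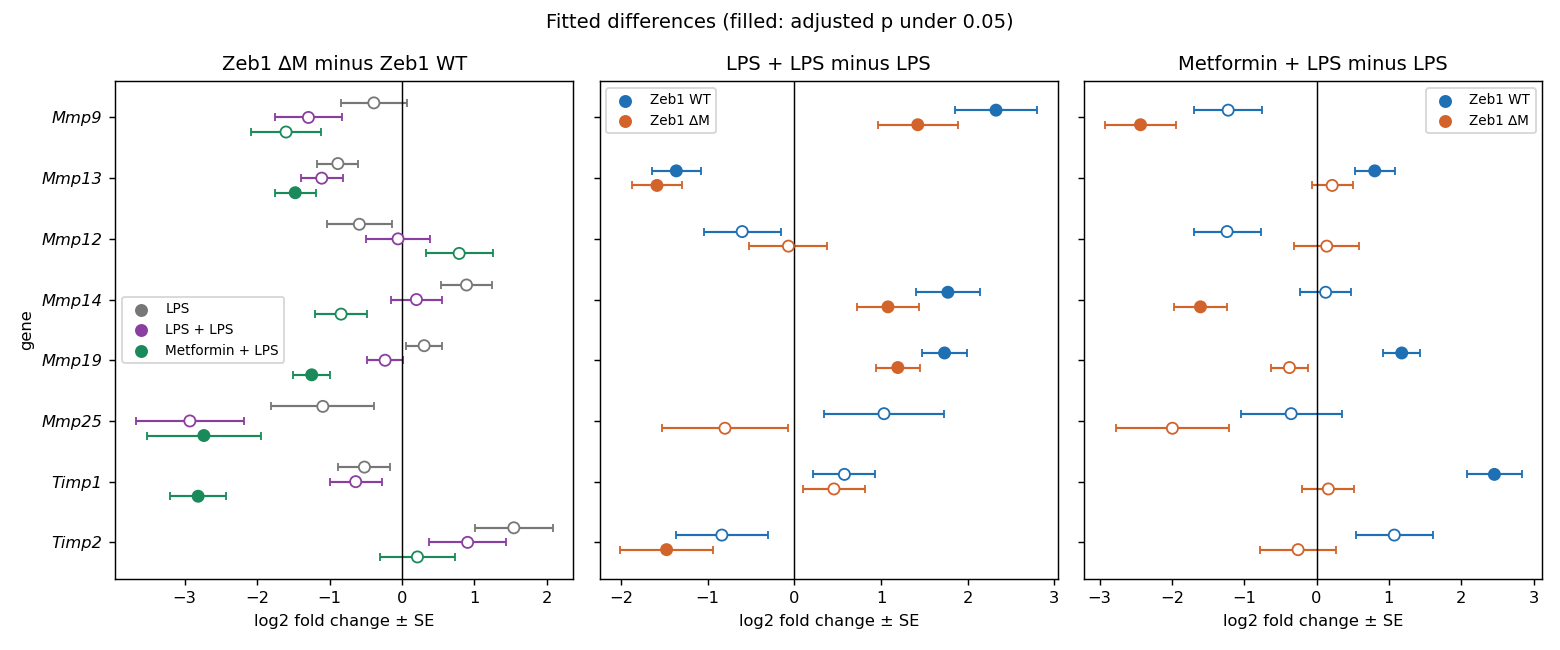
Fitted log2 fold changes ± SE of the 8 tested genes for Zeb1∆M minus Zeb1WT in each treatment (left), LPS + LPS minus LPS (middle) and Metformin + LPS minus LPS (right) in each genotype, with filled points where the edgeR adjusted p was under 0.05. *Timp1* stood at −2.81 for genotype in Metformin + LPS and at 2.46 for Metformin in Zeb1WT, and *Mmp9* and *Mmp13* went opposite ways with LPS + LPS.

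*Mmp9* encodes gelatinase B, a secreted enzyme that cuts denatured collagen and type IV collagen of basement membranes and is stored in neutrophil granules (chr2:164940780-164955850 of GRCm38, plus strand). In Zeb1WT macrophages it was at 43.16, 50.04 and 24.97 CPM with LPS and at 89.82, 361.42 and 142.47 CPM with LPS + LPS. In Zeb1∆M macrophages it was at 11.44, 50.57 and 28.03 CPM with LPS and at 95.75, 68.57 and 78.12 CPM with LPS + LPS. After Metformin + LPS it was at 12.65, 17.29 and 20.66 CPM in Zeb1WT and at 4.97, 6.69 and 5.05 CPM in Zeb1∆M macrophages. All LPS + LPS libraries thus lay above the LPS libraries of their genotype, and all Metformin libraries below them.

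*Mmp9* rose 5.02-fold in LPS + LPS against LPS in Zeb1WT (log2 fold change 2.33 ± 0.47 SE, edgeR quasi-likelihood adjusted p = 0.00083) and 2.68-fold in Zeb1∆M macrophages (1.42 ± 0.46, adjusted p = 0.024). The second of these calls was lost when Zeb1∆M LPS library 1, Zeb1∆M LPS library 3 or Zeb1∆M LPS + LPS library 1 was left out, with adjusted p up to 0.097. Without Zeb1WT LPS + LPS library 2 the Zeb1WT value was 1.56, and without Zeb1∆M LPS library 2 the Zeb1∆M value was 2.03. Against LPS, Metformin + LPS lowered *Mmp9* 5.40-fold in Zeb1∆M macrophages (−2.43 ± 0.49, adjusted p = 0.0018, and −1.83 without Zeb1∆M LPS library 2), and the value in Zeb1WT was −1.22 ± 0.47 with an adjusted p of 0.063. The Zeb1∆M minus Zeb1WT difference was −0.39 ± 0.46 with LPS (adjusted p = 0.77), −1.29 ± 0.46 with LPS + LPS (adjusted p = 0.24) and −1.60 ± 0.48 with Metformin + LPS (adjusted p = 0.060; called in 4 of 18 fits that left out 1 library). With Metformin + LPS the libraries of the genotypes did not overlap. The groups, from lowest to highest mean, were Zeb1∆M Metformin + LPS, Zeb1WT Metformin + LPS, Zeb1∆M LPS, Zeb1WT LPS, Zeb1∆M LPS + LPS and Zeb1WT LPS + LPS. Ranges of neighbours in this order were separate between the Metformin + LPS groups and between Zeb1WT LPS and Zeb1∆M LPS + LPS.

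Markers of eosinophils moved with *Mmp9* between libraries of a group, and their part in its levels was not tested. *Ccr3*, an eosinophil chemokine receptor, was at 64.7, 97.7 and 42.3 CPM in Zeb1WT LPS libraries and at 6.54, 107 and 36.7 CPM in Zeb1∆M LPS libraries, so the lowest library was the same one as for *Mmp9*. The highest *Ccr3* level, 150 CPM, fell in the Zeb1WT LPS + LPS library with the highest *Mmp9* level. In Zeb1∆M Metformin + LPS libraries *Ccr3* was at 0.304, 1.21 and 0.567 CPM.

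The summed level of 6 eosinophil markers ranged from 98.7 to 218 CPM in Zeb1WT LPS, 16.7 to 248 CPM in Zeb1∆M LPS, 45.8 to 335 CPM in Zeb1WT LPS + LPS, 12.9 to 27.2 CPM in Zeb1∆M LPS + LPS, 43.0 to 66.1 CPM in Zeb1WT Metformin + LPS and 2.94 to 4.25 CPM in Zeb1∆M Metformin + LPS libraries. *Siglecf* and *Ccr3* made up most of it, and the defining granule gene *Epx* was at 0 in all 18 libraries. Across libraries, deviations from the group means in *Mmp9* and in this sum had a Pearson r of 0.922 (18 libraries of 6 groups, which share depth and cell sorting with both measures). With the sum of 17 neutrophil markers, most of it from genes that macrophages also express, the r of *Mmp9* was 0.274. That of *Mmp8*, which encodes neutrophil collagenase, was 0.435 with the same sum. Zeb1∆M LPS + LPS libraries had less of the eosinophil sum than every Zeb1WT LPS library and more *Mmp9*. Zeb1∆M Metformin + LPS libraries were the lowest of all in both.

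The neutrophil alarmin *S100a8* was at 143, 66.4 and 151 CPM in Zeb1WT LPS, 29.2, 10.1 and 26.4 CPM in Zeb1∆M LPS, and 3.85, 3.32 and 6.47 CPM in Zeb1∆M Metformin + LPS libraries. Its higher levels with LPS + LPS are given with *Mmp8* below. It was lower in Zeb1∆M than in Zeb1WT macrophages with LPS (−2.46 ± 0.56, edgeR adjusted p = 0.034) and with Metformin + LPS (−2.80 ± 0.58, adjusted p = 0.0084). *Ly6g*, a defining neutrophil gene, reached at most 1.61 CPM in any library. Of the 17 neutrophil markers 15 were tested. With LPS 4 of them were lower in Zeb1∆M (median −2.61, 1.15% of all genes passed), and with LPS + LPS none passed (median −1.44, 0.677%). With Metformin + LPS 6 were lower (median −2.31, 5.87%). At LPS + LPS, 8 of the 15 had an unadjusted p under 0.05 in edgeR, as had 1575 of the 13443 genes. The summed level of all 17, most of it from genes that macrophages also express, was 3077 to 3570 CPM in Zeb1WT and 2744 to 3830 CPM in Zeb1∆M libraries with LPS, 2975 to 6503 and 3289 to 4103 CPM with LPS + LPS, and 3270 to 4278 and 2553 to 3103 CPM with Metformin + LPS. *Ly6g* and *Ngp* were at 0 in all Zeb1∆M Metformin + LPS libraries.

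**Figure D3:**
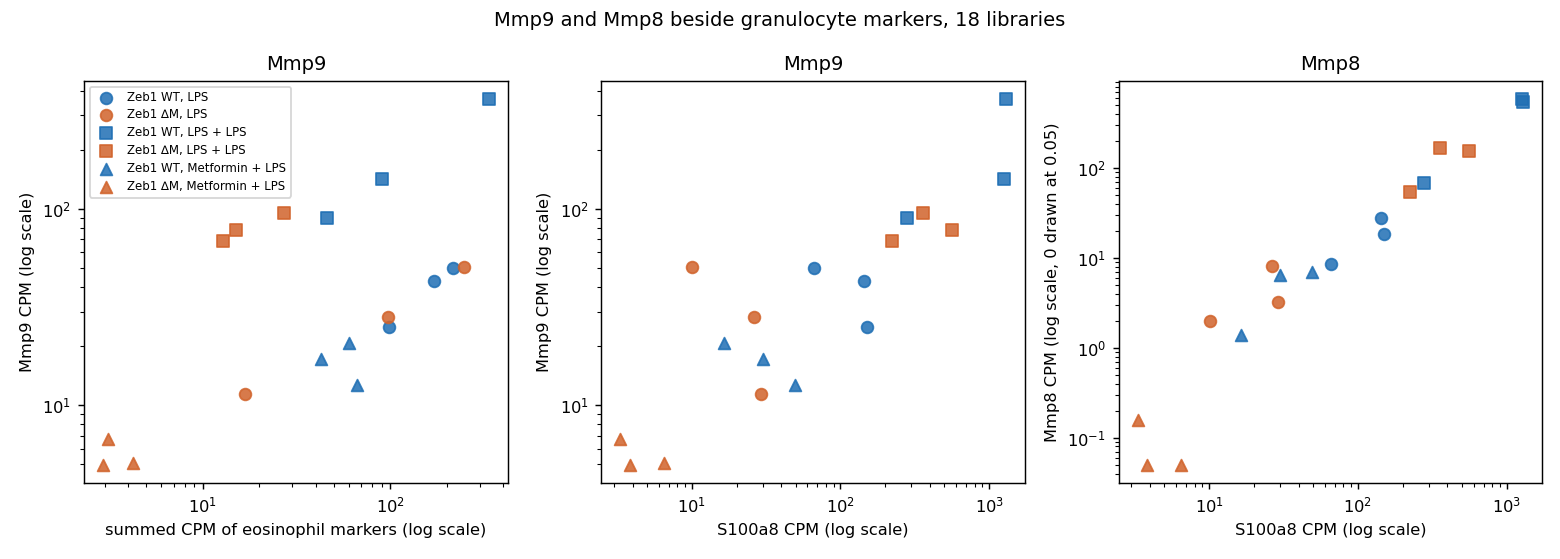
*Mmp9* against the summed CPM of 6 eosinophil markers (left) and against *S100a8* (middle), and *Mmp8* against *S100a8* (right), on log axes, with 1 point per library (blue Zeb1WT, orange Zeb1∆M; circles LPS, squares LPS + LPS, triangles Metformin + LPS; *Mmp8* levels of 0 drawn at 0.05). The 3 Zeb1∆M Metformin + LPS libraries were lowest on every axis, and the Zeb1∆M LPS + LPS libraries had 68.57 to 95.75 CPM of *Mmp9* at 12.9 to 27.2 CPM of eosinophil markers.

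*Mmp13* encodes collagenase 3, which cuts fibrillar collagen (chr9:7272514-7283331, plus strand). It was at 32.45, 34.42 and 14.91 CPM in Zeb1WT and 11.67, 20.64 and 11.92 CPM in Zeb1∆M macrophages with LPS. With LPS + LPS it was at 9.48, 13.94 and 8.43 against 5.10, 4.59 and 5.07 CPM, and with Metformin + LPS at 52.04, 42.07 and 48.98 against 17.39, 16.60 and 17.47 CPM. The Zeb1∆M mean was the lower one under all 3 treatments, and the genotypes overlapped in LPS alone.

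With Metformin + LPS *Mmp13* was 2.78-fold lower in Zeb1∆M than in Zeb1WT macrophages (−1.47 ± 0.28 SE, edgeR adjusted p = 0.0055). The difference was −0.89 ± 0.28 with LPS (adjusted p = 0.15) and −1.11 ± 0.29 with LPS + LPS (adjusted p = 0.094). *Mmp13* fell in LPS + LPS against LPS, 2.57-fold in Zeb1WT (adjusted p = 0.0010) and 3.00-fold in Zeb1∆M (adjusted p = 0.00041), opposite to *Mmp9*. The eosinophil marker sum given for *Mmp9* was 43.0 to 66.1 CPM in Zeb1WT and 2.94 to 4.25 CPM in Zeb1∆M Metformin + LPS libraries, and deviations of *Mmp13* from its group means had an r of 0.688 with it over 18 libraries. Its part in the *Mmp13* difference was not tested. In Metformin + LPS against LPS it rose 1.75-fold in Zeb1WT (0.80 ± 0.28, adjusted p = 0.042), and the value in Zeb1∆M was 0.22 ± 0.28 (adjusted p = 0.61). The Zeb1WT call was kept in 11 of 18 fits that each left out 1 library and lost, at adjusted p up to 0.18, without Zeb1WT LPS library 1 or 3, Zeb1WT Metformin + LPS library 1 or 3, or any 1 of the Zeb1∆M LPS + LPS libraries. By group mean the order was Zeb1∆M LPS + LPS, Zeb1WT LPS + LPS, Zeb1∆M LPS, Zeb1∆M Metformin + LPS, Zeb1WT LPS and Zeb1WT Metformin + LPS, and gaps lay between the ranges of the lowest group and its neighbour and between those of the highest group and its neighbour.

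*Mmp12* encodes macrophage elastase and lies close to *Mmp13* on the same chromosome (chr9:7344381-7369499, plus strand). It overlaps 157 exonic bases of *Mmp1b* on the other strand, which had no counts in any library. *Mmp12* was at 8.20, 12.07 and 8.30 CPM in Zeb1WT and 6.61, 6.27 and 6.11 CPM in Zeb1∆M macrophages with LPS, and at 3.50, 3.90 and 11.38 against 4.36, 3.16 and 10.65 CPM with LPS + LPS. Library 3 was the high one in both genotypes with LPS + LPS.

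With Metformin + LPS *Mmp12* was at 5.71, 3.70 and 2.79 CPM in Zeb1WT and 6.54, 6.22 and 8.17 CPM in Zeb1∆M macrophages, the reverse order of the genotypes to that with LPS, with no overlap either time. No edgeR test of *Mmp12* passed. The Zeb1∆M minus Zeb1WT difference was −0.59 ± 0.45 SE with LPS (adjusted p = 0.61) and 0.79 ± 0.46 with Metformin + LPS (adjusted p = 0.36). The test that these differ gave 1.38 ± 0.64 (adjusted p = 0.36). In the order of means the ranges of neighbouring groups overlapped, except that the highest, Zeb1WT LPS, stood apart from Zeb1∆M Metformin + LPS under it.

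*Mmp14* encodes MT1-MMP, a membrane-bound enzyme that activates proMMP-2 and proMMP-13 at the cell surface (chr14:54431612-54445364, plus strand). It was at 97.75, 77.42 and 135.34 CPM in Zeb1WT and 213.66, 165.97 and 195.67 CPM in Zeb1∆M macrophages with LPS. With LPS + LPS it was at 535.59, 293.01 and 231.80 CPM against 418.14, 411.66 and 387.10 CPM, and with Metformin + LPS at 69.74, 78.14 and 190.98 against 63.09, 83.40 and 42.63 CPM. Zeb1∆M libraries were the higher ones with LPS, without overlap, and the genotypes overlapped in the other treatments.

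The genotype difference in *Mmp14* was 0.89 ± 0.36 SE with LPS (edgeR adjusted p = 0.27), 0.20 ± 0.35 with LPS + LPS (adjusted p = 0.90) and −0.84 ± 0.36 with Metformin + LPS (adjusted p = 0.19). LPS + LPS raised *Mmp14* 3.42-fold over LPS in Zeb1WT (1.77 ± 0.37, adjusted p = 0.00092) and 2.12-fold in Zeb1∆M macrophages (1.08 ± 0.36, adjusted p = 0.027). The Zeb1∆M call was lost in 5 of 18 fits that left out 1 library, those without Zeb1∆M LPS library 2 or 3 or without any 1 of the 3 Zeb1∆M LPS + LPS libraries, at adjusted p up to 0.088. Metformin + LPS lowered *Mmp14* 3.04-fold in Zeb1∆M macrophages (−1.61 ± 0.36, adjusted p = 0.0039), and the value in Zeb1WT was 0.13 ± 0.36 (adjusted p = 0.84). The 2 LPS + LPS groups had the highest means, 353.5 ± 161 (SD, n = 3) and 405.6 ± 16.4 CPM, and their ranges lay above those of the other 4 groups. *Mmp2*, whose product MT1-MMP activates, was at most 4.20 CPM in any library, and 10 fibroblast and mesothelial markers summed to 0.387 to 7.72 CPM.

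*Mmp19* encodes a secreted enzyme that cuts basement membrane proteins and is found in myeloid cells (chr10:128790910-128800824, plus strand). It shares 789 exonic bases with *Tmem198b*, which was at 2.38 to 14.1 CPM, and 212 with *Gm47093*, both on the other strand. Whether counting used strand is not stated in the sources used here, so reads of these bases cannot be assigned with certainty. *Mmp19* was at 21.78, 14.04 and 10.42 CPM in Zeb1WT and 19.10, 19.57 and 18.60 CPM in Zeb1∆M macrophages with LPS. With LPS + LPS it was at 59.00, 39.31 and 55.84 against 42.81, 49.42 and 38.87 CPM. With Metformin + LPS it was at 25.40, 42.03 and 37.22 CPM in Zeb1WT and 17.19, 15.28 and 11.71 CPM in Zeb1∆M.

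*Mmp19* thus stood higher in all Zeb1WT Metformin + LPS libraries than in all Zeb1WT LPS libraries, and lower in all Zeb1∆M Metformin + LPS libraries than in all Zeb1∆M LPS libraries. It rose 2.26-fold with Metformin in Zeb1WT (1.18 ± 0.25 SE, edgeR adjusted p = 0.0025), and the value in Zeb1∆M was −0.37 ± 0.25 (adjusted p = 0.29). The test of the difference between these effects gave −1.55 ± 0.36 with an adjusted p of 0.071. Within Metformin + LPS *Mmp19* was 2.37-fold lower in Zeb1∆M macrophages (−1.25 ± 0.25, adjusted p = 0.0075). LPS + LPS raised it 3.33-fold in Zeb1WT (adjusted p = 3.6e-05) and 2.29-fold in Zeb1∆M macrophages (adjusted p = 0.0013). In the order of group means, Zeb1∆M Metformin + LPS, Zeb1WT LPS and Zeb1∆M LPS came first, and a gap separated them from Zeb1WT Metformin + LPS and both LPS + LPS groups.

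*Mmp25* encodes MT6-MMP, also called leukolysin, a membrane-anchored enzyme of leukocytes that is typical of neutrophils (chr17:23628311-23645277, minus strand). Its levels were low, from 4 to 727 counts per library. It was at 8.92, 7.40 and 5.94 CPM in Zeb1WT and 1.41, 7.70 and 1.22 CPM in Zeb1∆M macrophages with LPS. With LPS + LPS it was at 5.11, 27.77 and 12.82 against 2.38, 0.67 and 2.94 CPM, and with Metformin + LPS at 5.61, 6.70 and 5.11 against 0.71, 1.74 and 0.19 CPM.

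Zeb1WT libraries lay above Zeb1∆M libraries with LPS + LPS and with Metformin + LPS, and with LPS 1 Zeb1∆M library reached the Zeb1WT range. That library, Zeb1∆M LPS library 2, was also the highest of its group in *Mmp9* and *Ccr3*. The genotype difference in *Mmp25* passed the edgeR test with Metformin + LPS (6.66-fold lower in Zeb1∆M, −2.73 ± 0.79 SE, adjusted p = 0.048). It was kept in 7 of 18 fits that left out 1 library and lost, at adjusted p up to 0.16, without any 1 of the Zeb1WT LPS or Zeb1WT Metformin + LPS libraries, Zeb1WT LPS + LPS library 3, Zeb1∆M LPS + LPS library 1 or 3, or Zeb1∆M Metformin + LPS library 1 or 3. Without Zeb1∆M Metformin + LPS library 2 it was −3.71. Deviations of *Mmp25* had an r of 0.570 with the eosinophil marker sum over 18 libraries. With the neutrophil sum, most of it from genes that macrophages also express, the r was 0.139. The part of these cells in the difference was not tested. The genotype difference was −2.93 ± 0.74 with LPS + LPS (adjusted p = 0.085) and −1.09 ± 0.71 with LPS (adjusted p = 0.52). Without Zeb1WT LPS + LPS library 1 the LPS + LPS difference was −3.34 with an adjusted p of 0.019. No treatment comparison of *Mmp25* passed, with −0.35 ± 0.70 for Metformin in Zeb1WT (adjusted p = 0.76) and −1.99 ± 0.78 in Zeb1∆M (adjusted p = 0.068). Each group's range overlapped that of its neighbour in the order of means.

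*Timp1* encodes a secreted inhibitor of most soluble MMPs that also acts as a cytokine (chrX:20870166-20874735, plus strand, within *Syn1* on the other strand but sharing no exonic base with it). It was at 118.95, 107.68 and 117.04 CPM in Zeb1WT and 98.54, 53.78 and 87.59 CPM in Zeb1∆M macrophages with LPS, and at 203.30, 130.90 and 178.75 against 129.13, 110.53 and 89.53 CPM with LPS + LPS. With Metformin + LPS it was at 452.97, 288.00 and 1148.18 CPM in Zeb1WT and at 89.46, 107.11 and 72.00 CPM in Zeb1∆M. Zeb1WT libraries were above Zeb1∆M libraries under every treatment, with the widest gap after Metformin.

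*Timp1* rose 5.50-fold with Metformin + LPS against LPS in Zeb1WT macrophages (2.46 ± 0.38 SE, edgeR adjusted p = 0.00018), and the value in Zeb1∆M was 0.16 ± 0.36 (adjusted p = 0.78). Within Metformin + LPS it was 7.03-fold lower in Zeb1∆M (−2.81 ± 0.38, adjusted p = 0.00063), and both of these calls were kept in all 18 fits that left out 1 library. Without Zeb1WT Metformin + LPS library 3, the highest, the Metformin effect in Zeb1WT was 1.72 and the genotype difference −2.06. The Metformin effect differed between the genotypes by −2.30 ± 0.51 (adjusted p = 0.065), a value that went from −2.65 to −1.53 as single libraries were left out, the smallest difference being that without Zeb1WT Metformin + LPS library 3. The genotype difference was −0.52 ± 0.36 with LPS (adjusted p = 0.56) and −0.64 ± 0.36 with LPS + LPS (adjusted p = 0.53). In the order of means the Zeb1WT LPS, Zeb1WT LPS + LPS and Zeb1WT Metformin + LPS groups stood apart from each other at the top, and the Zeb1∆M groups overlapped at the bottom, Zeb1∆M LPS + LPS also with Zeb1WT LPS.

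*Timp2* encodes an inhibitor that also takes part, with MT1-MMP, in the activation of proMMP-2 (chr11:118301069-118355740, minus strand). It was at 36.84, 49.08 and 84.25 CPM in Zeb1WT and 219.68, 91.65 and 184.31 CPM in Zeb1∆M macrophages with LPS. With LPS + LPS it was at 64.84, 11.99 and 18.40 against 109.30, 38.68 and 30.16 CPM, and with Metformin + LPS at 109.22, 131.08 and 117.77 against 135.25, 122.23 and 157.56 CPM. The Zeb1∆M mean was the higher one under each treatment, the reverse of *Timp1*, and the genotypes did not overlap with LPS.

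The genotype difference in *Timp2* was 1.54 ± 0.53 SE with LPS (edgeR adjusted p = 0.19), 0.91 ± 0.53 with LPS + LPS (adjusted p = 0.55) and 0.21 ± 0.52 with Metformin + LPS (adjusted p = 0.87). Without Zeb1WT LPS + LPS library 1 the LPS + LPS difference was 1.97 with an adjusted p of 0.0355. *Timp2* fell 2.78-fold in LPS + LPS against LPS in Zeb1∆M macrophages (−1.47 ± 0.53, adjusted p = 0.041), and the value in Zeb1WT was −0.84 ± 0.53 (adjusted p = 0.23). The Zeb1∆M call was kept in 7 of 18 fits that left out 1 library and lost, at adjusted p up to 0.16, without Zeb1WT LPS library 2, Zeb1∆M LPS library 1 or 3, Zeb1∆M LPS + LPS library 2 or 3, or any 1 of the 6 Metformin + LPS libraries. It was −2.26 without Zeb1∆M LPS + LPS library 1. Without Zeb1WT LPS + LPS library 1 the Zeb1WT value was −1.90, with an adjusted p of 0.0056. Neighbouring groups in the order of means overlapped throughout.

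*Timp3*, an inhibitor that stays bound to the matrix and also blocks ADAM enzymes such as ADAM17 (chr10:86300372-86349506, plus strand), had 6, 0 and 29 counts in the Zeb1WT LPS libraries and 0, 0 and 8 counts in the Zeb1∆M Metformin + LPS libraries. It had 0 counts in all libraries of the other 4 groups, where 3 counts over a group would have been the limit. No fold change was computed, and these limits cover counting error alone.

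Of the other 18 Mmp and Timp genes, 5 passed the filter on low counts, and the remaining 13 had at most 19 counts in any library, with 3 of them at 0 throughout. *Mmp8* encodes neutrophil collagenase, which cuts fibrillar collagen, and the study had singled it out as well. It was at 27.47, 8.62 and 18.55 CPM in Zeb1WT and 3.20, 1.99 and 8.15 CPM in Zeb1∆M macrophages with LPS, and at 67.46, 545.61 and 578.47 against 164.96, 53.37 and 153.69 CPM with LPS + LPS. *Mmp8* rose in LPS + LPS in both genotypes, 21.8-fold in Zeb1WT (4.44 ± 0.77 SE, edgeR adjusted p = 0.00018) and 27.7-fold in Zeb1∆M (4.79 ± 0.80, adjusted p = 0.00015). The genotype difference was −2.02 ± 0.73 with LPS (adjusted p = 0.21) and −1.68 ± 0.68 with LPS + LPS (adjusted p = 0.32).

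With Metformin + LPS *Mmp8* had 74, 141 and 18 counts in Zeb1WT and 0, 3 and 0 counts in Zeb1∆M libraries. The ratio of summed levels was 103 (95% exact interval 34.9 to 504, counting error only), and the edgeR test of the difference passed (adjusted p = 0.0071). *S100a8* ranged from 280 to 1294 CPM in the Zeb1WT and from 224 to 562 CPM in the Zeb1∆M LPS + LPS libraries, and the highest *Mmp8* libraries were the highest for *S100a8*. *Mmp2*, *Mmp24*, *Mmp27* and *Mmp28* passed in none of the 7 pairwise comparisons or the 2 interaction tests.

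Genes that act on MMPs, or belong to the related ADAM and ADAMTS families, were followed through a list of 24, of which 17 were tested. With LPS + LPS against LPS, 4 were higher and 6 lower in Zeb1WT (36.6% of all genes passed) and 6 were higher and 4 lower in Zeb1∆M macrophages (32.7%). *Serpinb2*, a plasminogen activator inhibitor of macrophages, was at 6721 to 13876 CPM in Zeb1WT LPS libraries and fell to 587 to 1152 CPM in LPS + LPS libraries (−3.50 ± 0.36 SE, edgeR adjusted p = 5.2e-07), and in Zeb1∆M macrophages its change was −1.89 ± 0.33 (adjusted p = 0.00027). *Plat*, tissue plasminogen activator, fell by 3.44 ± 0.54 on the log2 scale in Zeb1WT (adjusted p = 6.6e-05) and by 1.53 ± 0.54 in Zeb1∆M (adjusted p = 0.035). *Adamtsl4*, an ADAMTS-like matrix protein without protease activity, rose in both genotypes (3.15 ± 0.48 in Zeb1WT and 2.92 ± 0.47 in Zeb1∆M, adjusted p = 5.0e-05 and 0.00011). The sheddase *Adam10* rose in both (1.13 ± 0.22 in Zeb1WT and 1.06 ± 0.22 in Zeb1∆M, adjusted p = 0.00054 and 0.0011). *Cd44*, a hyaluronan receptor that docks MMP9 and MT1-MMP, fell in both (−0.84 ± 0.22 and −1.07 ± 0.22, adjusted p = 0.0065 and 0.0012).

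With Metformin + LPS against LPS, 5 of the 17 were higher and 0 lower in Zeb1WT (25.2% of all genes passed), and 5 were higher and 1 lower in Zeb1∆M macrophages (26.2%). *Adam15* rose in both genotypes (1.88 ± 0.26 SE in Zeb1WT and 1.74 ± 0.26 in Zeb1∆M, edgeR adjusted p = 8.1e-05 and 0.00019), as did *Cd44* (1.43 ± 0.23 and 0.80 ± 0.22, adjusted p = 0.00023 and 0.014). The sheddases *Adam17* and *Adam10* rose in Zeb1WT by 0.84 ± 0.19 (adjusted p = 0.0031) and 0.81 ± 0.22 (adjusted p = 0.012), and in Zeb1∆M by 0.63 ± 0.19 (adjusted p = 0.018) and 0.76 ± 0.22 (adjusted p = 0.016). *Plat* rose in Zeb1∆M macrophages (3.26 ± 0.52, adjusted p = 0.00032) and *Adam19* fell there (−3.45 ± 0.94, adjusted p = 0.012). The *Adam19* libraries of these treatments overlapped, and its Metformin + LPS levels in Zeb1∆M, given below, were low.

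Between genotypes, 0 of the 17 passed with LPS in edgeR (1.15% of all genes), and 3 had an unadjusted p under 0.05, as had 1844 of the 13443 genes. With LPS + LPS 1 was higher in Zeb1∆M and 0 lower (0.677% of all genes passed), and 4 had an unadjusted p under 0.05, as had 1575 genes in all. With Metformin + LPS (5.87% of all genes) *Cd44* (−0.89 ± 0.22, adjusted p = 0.023) and *Adam19* (−3.50 ± 0.94, adjusted p = 0.035) were lower in Zeb1∆M macrophages. *Adam19* was at 0.152, 0.105 and 0.992 CPM there, against 6.66, 3.65 and 4.49 CPM in Zeb1WT.

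The genes most like each member were sought among 6450 well-expressed genes, by Pearson r of log2 CPM deviations from the group means over 18 libraries, and are given as a description. For *Mmp9* they were *Siglecg* (0.962), *Lilra6* (0.950) and *Ccr3* (0.931). The best match of *Timp2* was *Rnf149* (0.921), of *Mmp13* *Dstn* (0.900), of *Timp1* *Anxa2* (0.894), of *Mmp12* *Trappc13* (0.888), of *Mmp25* *Atp11b* (0.884), of *Mmp14* *Ahctf1* (0.858) and of *Mmp19* *Sephs1* (0.844). Among the members themselves, *Mmp14* and *Timp1* had an r of 0.741, *Mmp9* an r of 0.708 with *Mmp13*, of 0.688 with *Mmp25* and of −0.615 with *Timp2*.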

How the data were processed

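RNA from the 18 sorted macrophage samples was made into libraries with a stranded mRNA kit. The authors deposited raw counts per gene for all samples in 1 table. Per the labels, STAR, RSEM, DESeq2 and the GRCm38 build were used, with versions, and the strand setting of counting, not given in the sources used here. Of the 55573 gene identifiers 55094 match GENCODE mouse release 21, from which coordinates and exon lengths were taken.

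Samples were grouped by genotype and treatment from the labels, 3 per group. As the p-values rest on 3 pools of mice per group, they measure the spread between pools. The 9 members and all lists were chosen with earlier results of these data known. Counts were filtered (filterByExpr, 13443 genes kept), scaled by TMM and tested with edgeR 4.0.16 (R 4.3.3) quasi-likelihood tests in 1 fit over the 6 groups, with Benjamini-Hochberg adjustment over all genes tested and a threshold of 0.05. CPM used TMM-scaled library sizes. The standard error (SE) was derived from the edgeR test. It is the absolute log2 fold change divided by the square root of the quasi-likelihood F statistic. The steps were tested on simulated data.

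Named genes were the members, other Mmp and Timp genes that passed the filter, up to 4 listed related genes per comparison by adjusted p (results of 1 listed gene are not reported here), and check and marker genes. Alternatives were DESeq2 1.42.0, median-of-ratios factors, no count filter, only the groups compared, a replicate block, and leaving out each library. The study's own display of these genes shows fewer Zeb1WT LPS + LPS samples than were deposited, and all libraries were kept here.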

Additional observations from a re-analysis of the deposited data

How the results depend on the processing

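Of 1656 values of single members under an alternative, 1536 kept their direction and their side of the threshold, and all reversals came from leaving out a library, for values that were not called. The median-of-ratios factors changed no member's call and gave 2 genes for the LPS + LPS interaction. DESeq2 called 505 genes and 1 member for genotype with LPS, 371 and 2 with LPS + LPS, and 1357 genes with Metformin + LPS. It called 3983 genes and 5 members for Metformin in Zeb1WT. For the interactions it called 74 genes with LPS + LPS, and 300 genes and 3 members with Metformin. With no count filter all 9 members entered the fit. Genotype then gave 738 genes and 3 members with LPS, 640 and 4 with LPS + LPS, and 1213 genes with Metformin + LPS. In Zeb1WT, LPS + LPS gave 4787 genes and 8 members, and Metformin gave 3381 and 7. The interactions gave 236 genes for LPS + LPS, and 601 genes and 6 members for Metformin. With only the groups compared, 0 genes passed for genotype with LPS + LPS and 505 with Metformin + LPS. Metformin in Zeb1WT gave 3111 genes and 5 members, and the Metformin interaction gave 44 genes. The causes of these differences were not tested.

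Replicate numbers are shared across groups, but same-numbered libraries did not deviate together (45 pairs, r from −0.089 to 0.152, 3 over 0.1), and 8 of 18 libraries correlated best with their own number. A replicate block moved the members called to 5 for genotype with Metformin + LPS, with 787 genes in all. For Metformin in Zeb1WT it gave 4 members and 3349 genes. *Mmp9* passed in both (edgeR adjusted p = 0.033 and 0.039).

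Leaving out 1 library at a time gave, for genotype, 55 to 244 genes and 0 to 1 members with LPS (lowest without Zeb1∆M LPS library 1, highest without Zeb1WT LPS + LPS library 1), 29 to 397 genes and 0 to 2 members with LPS + LPS (lowest without Zeb1∆M LPS + LPS library 2, highest without Zeb1WT LPS + LPS library 1), and 321 to 965 genes and 3 to 5 members with Metformin + LPS (lowest without Zeb1∆M Metformin + LPS library 1). For LPS + LPS it gave 4015 to 5063 genes and 4 to 5 members in Zeb1WT and 3328 to 4550 genes and 2 to 5 members in Zeb1∆M, with 2 members left without Zeb1∆M LPS library 3. For Metformin it gave 2478 to 3587 genes and 2 to 5 members in Zeb1WT (2 without Zeb1WT LPS library 1, 5 without Zeb1WT LPS + LPS library 1) and 2268 to 3751 genes and 2 to 3 members in Zeb1∆M (lowest gene count without Zeb1∆M Metformin + LPS library 2). The interactions gave 0 to 11 genes and 0 members for LPS + LPS, and 3 to 70 genes (without Zeb1WT Metformin + LPS libraries 3 and 2) and 0 to 1 members for Metformin.

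The log2 values that changed sign ran, for genotype with LPS + LPS, from −0.73 to 0.71 for *Mmp12* and −0.025 to 0.63 for *Mmp14*. For LPS + LPS in Zeb1∆M they ran from −0.74 to 0.24 for *Mmp12* and −1.16 to 0.60 for *Mmp25*. For Metformin they ran from −0.46 to 0.41 for *Mmp14* in Zeb1WT, and in Zeb1∆M from −0.058 to 0.34 for *Timp1* and −0.55 to 0.00022 for *Timp2*. For the LPS + LPS interaction they ran from −0.14 to 1.30 for *Mmp12*, −0.40 to 0.11 for *Mmp13*, −0.34 to 0.061 for *Timp1* and −1.42 to 0.43 for *Timp2*. Counts were low for *Timp3* and, with Metformin, for *Mmp8* and *Mmp25* in Zeb1∆M, where single libraries held 0 to 33 counts.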
